A study of Mus musculus with 72 samples.

Results

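After 4 h of activation, OT-I CD8 T cells differed from unstimulated cells in most of the genes they expressed. Chemokine and cytokine genes (Xcl1, Ccl3, Ccl4, Il2, Ifng), the activation receptors Tnfrsf9, Pdcd1 and Il2ra, the transcription factors Irf4, Irf8, Tbx21, Egr2 and Nr4a1, Myc and the genes of ribosome assembly rose. The quiescence and homing genes Klf2, S1pr1, Tcf7, Ccr7 and Il7r, much of the T cell receptor signalling machinery and most mitosis genes fell. The comparison takes in the 4 libraries titled as vehicle-treated CD8 cells at 4 h and the 4 titled as unstimulated CD8 cells, chosen by title, which are 8 of the 72 samples. Of the 55487 genes in the authors' count table, the 18317 with enough counts for a test entered it.

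The 4 h group holds OT-I cells activated with SIINFEKL peptide at 10 ng/mL and recombinant human IL-2 at 100 IU/mL and given vehicle. The unstimulated group holds OT-I CD8 T cells, also labelled vehicle, for which the labels give no time in culture. OT-I mice carry a transgenic T cell receptor that recognises this ovalbumin peptide on the class I molecule H-2Kb, so peptide added to a splenocyte culture can engage most of its CD8 T cells. For both groups the labels describe red-cell-lysed splenocytes in RPMI with 10% fetal bovine serum, antibiotics, HEPES, glutamine and β-mercaptoethanol. The treatment text names DMSO, PBS and water as vehicles without saying which these libraries received, and the sources used here give no sorting step, age or sex. The labels do not say whether replicates A to D came from separate mice or cultures, so the p-values measure a spread between libraries that may be technical. Peptide, IL-2 and time in culture differ together between the groups and cannot be told apart. The series as a whole asks how blocking glutamine use changes CD8 T cell function, and these libraries hold cells to which no inhibitor was added.

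Binding of peptide to the T cell receptor activates kinases that release calcium, switch on RAS and MAP kinases and free NF-kB, and these routes bring NFAT, AP-1 and NF-kB factors onto target genes. The first genes to respond encode transcription factors, and cytokines, receptors and growth genes follow. A naive CD8 T cell is small and quiescent, recirculates through lymph nodes and keeps its ribosome production low. Within hours of a strong signal it stops recirculating and starts to build the ribosomes, amino acid transport and enzymes that division requires, while division itself starts much later.

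The 4 h libraries held 32727001 to 46144047 counts and the unstimulated libraries 32550890 to 48303802. Genes with at least 1 count numbered 27505 to 29201 at 4 h and 28613 to 32295 in unstimulated cells. The 100 most abundant genes took 19.7% of counts at 4 h and 20.2% in unstimulated cells (exact permutation test over the 8 libraries, two-sided p = 0.2). The first principal component held 56.9% of the variance among the unstimulated and vehicle libraries. It ran from unstimulated (−126.19 to −110.35) through 4 h (−25.77 to −19.34) to the 24 h and 48 h libraries (66.92 to 72.5). On the second, with 33.6%, the 4 h libraries lay at 95.7 to 104.17 and all others at −50.85 to −11.71. Levels are given as counts per 1000000 (CPM) after scaling between libraries by the trimmed mean of M values (TMM), with factors of 0.926 to 1.034 at 4 h and 1.123 to 1.191 in unstimulated cells. They are written as mean ± SD with n = 4 in each group unless all libraries are listed, and ± after a log2 fold change is its standard error. No spike-in is named, so every value is a share of a library, and a change in total RNA per cell would not be seen. In bulk RNA, fewer cells of a type and less RNA per cell cannot be told apart.

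The labelled cell type was checked against its markers. The summed level of 13 CD8 T cell markers was 4760 ± 204 CPM at 4 h and 7930 ± 275 CPM in unstimulated cells, and each group was well above the 47.1 ± 3.07 and 40.3 ± 1.93 CPM of the CD4 T cell markers, among which Cd4 itself had too few counts to test. Markers of B cells, which present peptide in a splenocyte culture, summed to 3580, 3000, 3270 and 2500 CPM at 4 h and to 2000, 1630, 1950 and 1800 CPM in unstimulated cells, so the groups did not overlap; 12 of the 16 genes rose and 0 fell in edgeR, at an adjusted or unadjusted p of 0.05, and 0 in DESeq2, with 1 down when 4 h replicate D was left out. Immunoglobulin chains made up most of that sum, with Ighm at 1980 CPM and Igkc at 886 CPM at 4 h, against 1380 and 401 CPM in unstimulated cells. Replicate D was the lowest 4 h library in that sum. Dendritic cell markers summed to 10.4 ± 0.107 CPM at 4 h and 5.78 ± 1.02 CPM in unstimulated cells, monocyte markers to 38.6 ± 11.8 and 111 ± 27 CPM, and erythroid and platelet markers to 35.1 ± 4.93 and 71.5 ± 15.6 CPM. Ly6c2, which CD8 T cells also express, made up most of the monocyte sum, and the macrophage markers Adgre1 and Fcgr1 had too few counts to test. NK cell markers summed to 15.8 ± 1.44 CPM at 4 h and 29.2 ± 2.39 CPM in unstimulated cells, where Eomes, which CD8 T cells also express, made up most of the sum. Each of these sums differed between the groups at the smallest p that 4 against 4 libraries allow (exact permutation test, two-sided p = 0.0286). Single members did not all follow the sums. Of 9 tested erythroid and platelet markers 5 rose and 2 fell (median log2 fold change 1.25). Of 9 monocyte markers 4 rose and 2 fell (median 0.53), but 0 rose and 1 fell at an adjusted p of 0.01. Of 6 NK markers 1 rose and 1 fell (median 0.82), and of 5 dendritic cell markers 4 rose and 1 fell (median 0.71). The log2 fold changes of these dendritic cell markers ran from −1.22 to 4.71, and Clec9a, Siglech and Cd209a had too few counts to test. The part of other cells, CD8 T cells among them, in the dendritic cell sum was not tested. The NK markers that rose were 4 with the 8 libraries alone, 3 without unstimulated replicate D and 2 without 4 h replicate B or C. The summed neutrophil markers did not separate the groups (p = 0.886 in the same exact permutation test). Replicate C was the highest library of that sum in both, at 119 CPM at 4 h and 167 CPM unstimulated. Of the 8 tested neutrophil markers 4 rose and 0 fell (median 1.82). The number that rose was 1 at an adjusted p of 0.01 and 0 with the 8 libraries alone. Without 4 h replicate C, 1 rose and 1 fell. What part these other cells had in the differences below was not tested.

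Of the 18317 genes tested, 6210 rose at 4 h (33.9%) and 7512 fell (41%) at an adjusted p of 0.05 in edgeR's quasi-likelihood test, 74.9% in all. Asking for a change shown to exceed 2-fold left 2846 genes up (15.5%) and 3562 down (19.4%), 35% in all. The fitted change was at least 16-fold for 235 of the genes that rose and 308 of those that fell, and at least 64-fold for 80 and 35. The CPM of the 2 groups did not overlap for 6089 genes that were higher at 4 h (33.2%) and 6873 that were lower (37.5%). The median log2 fold change of all tested genes was −0.21, and it is the level against which the gene lists below are read. Scaling the libraries by their totals alone moved it by −0.24, to −0.45, and leaving out unstimulated replicate D brought it to −0.13. Totals alone gave 5217 genes up and 8875 down.

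**Figure D1:**
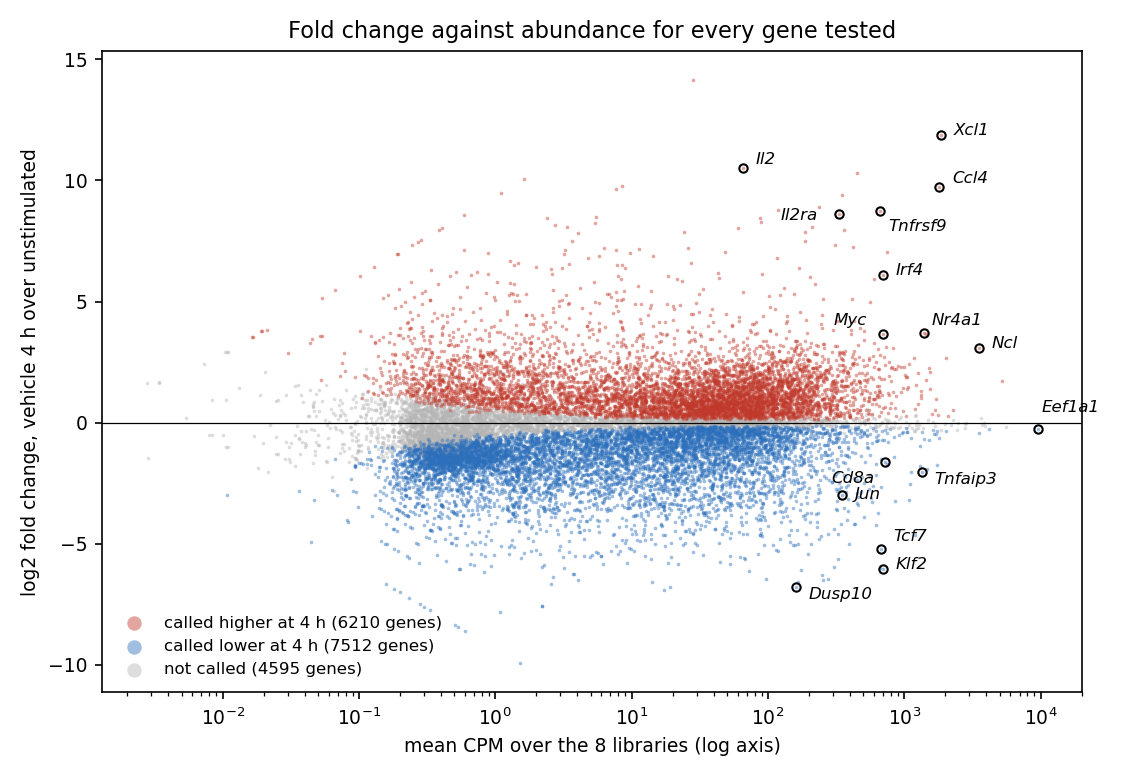
Each point is 1 of 18317 tested genes, with mean CPM over the 8 libraries across on a log axis and log2 fold change at 4 h over unstimulated up the page; red genes rose (6210), blue genes fell (7512) and the 4595 that were not called are grey. Of the 16 genes circled, Xcl1 has the highest log2 fold change and Dusp10 the lowest.

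The called genes held most of the counts. Genes that rose took 65.1 ± 0.539% of counts at 4 h and 30.7 ± 0.304% in unstimulated cells. Those that fell took 18.6 ± 0.514% at 4 h and 49.6 ± 0.556% in unstimulated cells. The 4595 genes that were not called took 16.3 ± 0.0977% at 4 h and 19.5 ± 0.538% in unstimulated cells, and these shares describe genes that were sorted by the same values.

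Against that background, 49 lists of genes with a known role in T cells, growth or stress were read. They hold 1671 entries, some genes standing in more than 1 list, of which 1637 were tested and 34 had too few counts. Chemokines and cytokines had the highest medians, followed by nucleolar ribosome assembly and the tRNA synthetases, and the quiescence list had the lowest.

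**Figure D2:**
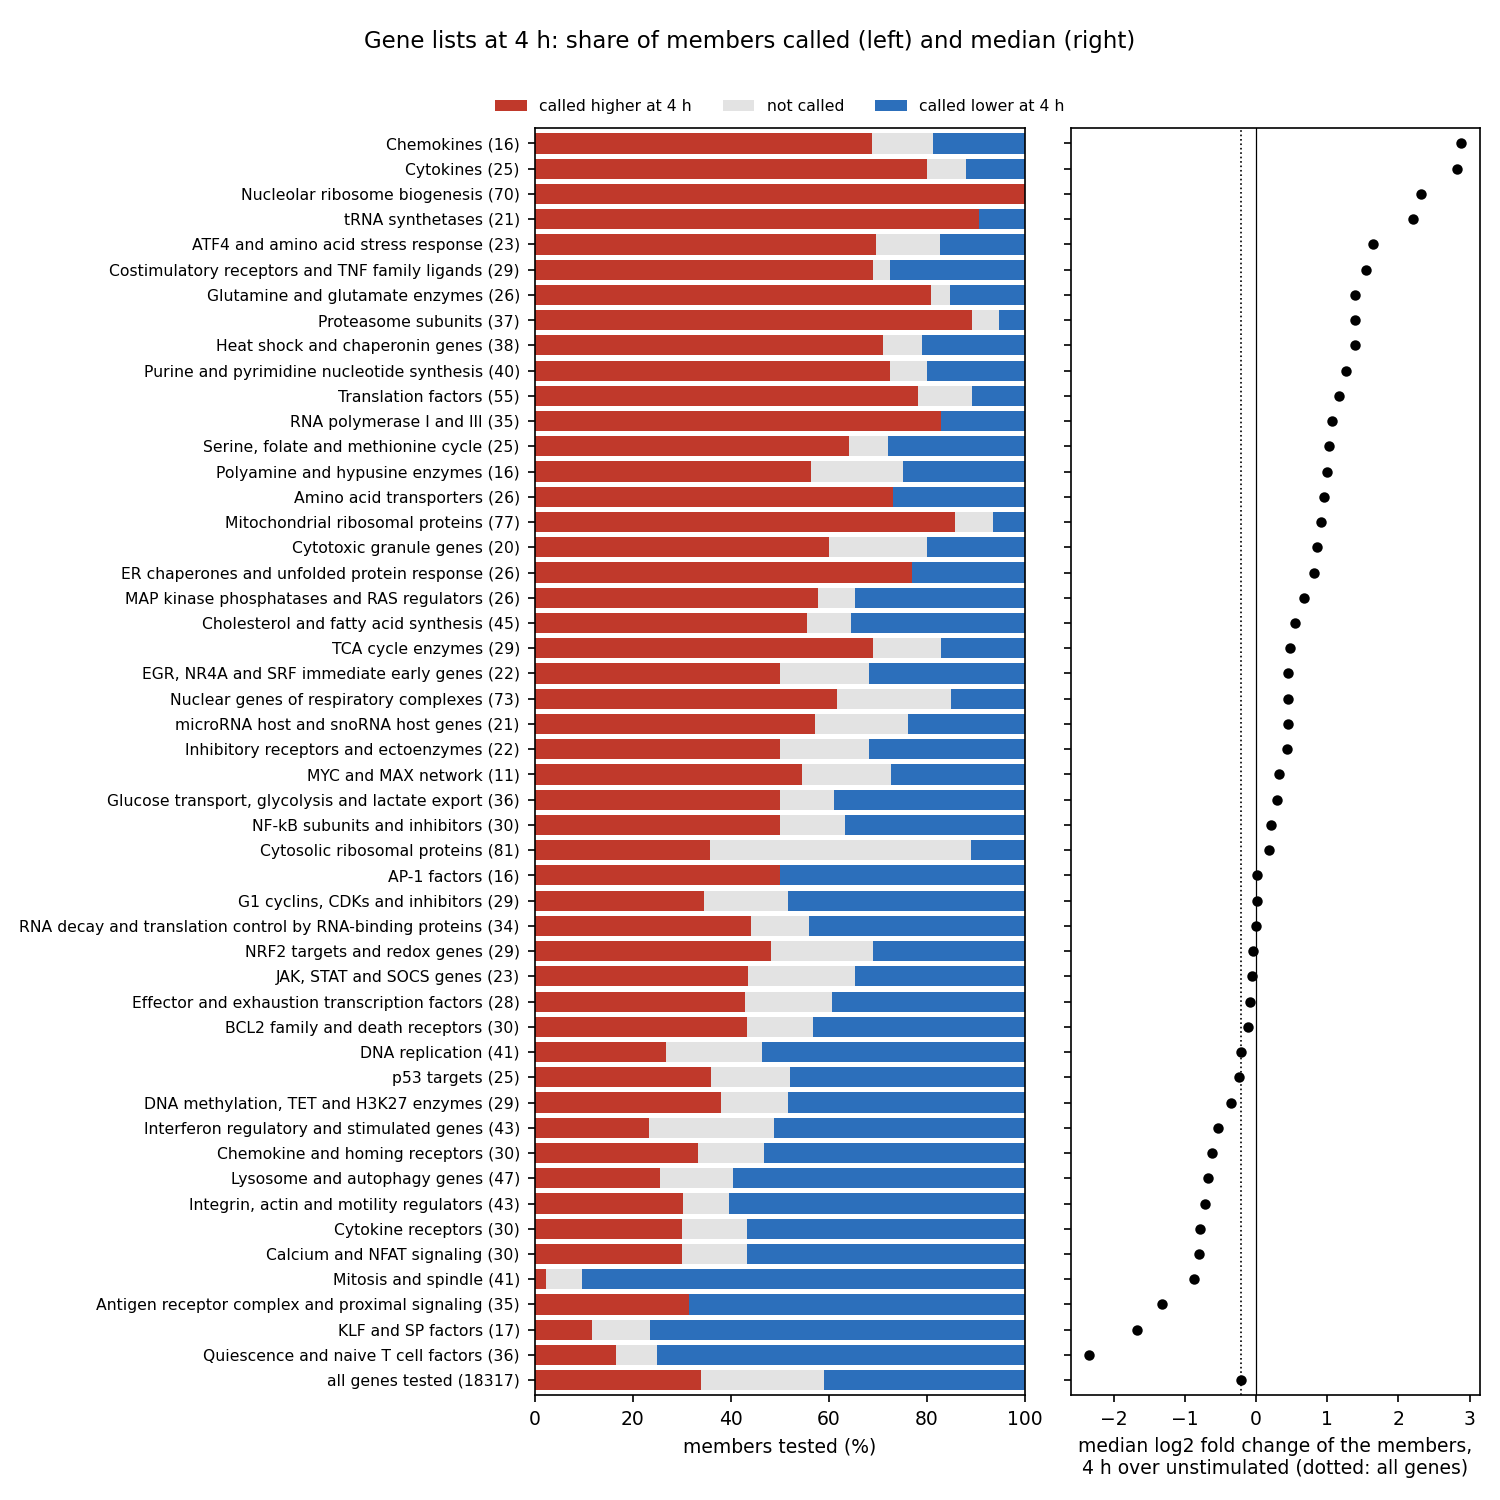
For each gene list, with the number of tested members in brackets, the left panel gives the share of members that rose (red), were not called (grey) or fell (blue), and the right panel the median log2 fold change at 4 h over unstimulated. All 70 nucleolar genes rose, 37 of 41 mitosis genes fell, and all tested genes together are the bottom row, with their median of −0.21 dotted.

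Most genes of the antigen receptor complex and its first signalling steps fell. Of 35 tested genes of the antigen receptor complex and its proximal signalling, 11 rose and 24 fell, with a median log2 fold change of −1.32. Cd8a, the co-receptor chain that binds class I molecules, had 364, 371, 355 and 333 CPM at 4 h and 1120, 1100, 1070 and 1090 CPM in unstimulated cells, a log2 fold change of −1.62 ± 0.06. Every 4 h library lay below every unstimulated library. Cd8b1 fell to 152 ± 5.86 CPM at 4 h against 865 ± 55.6 CPM, and the CD3 signalling chains Cd3d, Cd3e and Cd3g fell by 1.63, 1.32 and 2.13 on the log2 scale. Trac, the constant part of the receptor's alpha chain, rose to 591 ± 36.9 CPM at 4 h against 368 ± 14.6 CPM. Among the adaptors, Lcp2 (SLP-76) rose by 1.74 ± 0.06, whereas Grap2, which binds it, fell to 44.8 ± 4.74 CPM at 4 h against 826 ± 20.8 CPM in unstimulated cells. The inhibitory adaptor Sit1 fell to 0.755 ± 0.18 CPM at 4 h against 42.9 ± 4.41 CPM, and Sla2, which promotes receptor turnover and shares 23.6% of its exon bases with another gene, fell to 3.32 ± 0.755 CPM against 61.2 ± 4.28 CPM. Dgka, the kinase that removes diacylglycerol and so limits RAS activation, fell to 63.2 ± 12.8 CPM at 4 h against 1180 ± 53.3 CPM. The members that rose included other brakes: Cblb, a ubiquitin ligase that restrains the receptor, reached 306 ± 20.8 CPM at 4 h against 66.9 ± 2.86 CPM, the phosphatase Ubash3b 104 ± 10 against 21.5 ± 0.985 CPM, and Cd5, an inhibitory surface receptor, 764 ± 50.5 against 268 ± 6.43 CPM.

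Calcium entry through ORAI channels activates calcineurin, which lets NFAT enter the nucleus. In the calcium and NFAT list, 9 of 30 tested genes rose and 17 fell, with a median of −0.80. The family members of one step moved apart. Orai1, the main pore-forming subunit, rose to 300 ± 16.8 CPM at 4 h against 28.8 ± 1.58 CPM, while Orai2 fell to 26.9 ± 2.76 CPM against 358 ± 17.5 CPM, and the store sensor Stim1 fell to 21.1 ± 1.03 CPM against 159 ± 3.52 CPM. The IP3 receptor gene Itpr3 fell by 4.07 ± 0.13 and Nfatc2, an NFAT factor of resting T cells, fell to 3.84 ± 0.5 CPM at 4 h against 48.4 ± 2.65 CPM. Atp2a2, the pump that refills the calcium store, rose by 2.36 ± 0.09 and Nfat5, an NFAT relative that does not depend on calcineurin, by 1.84 ± 0.09. Ppp3cb, a catalytic subunit of calcineurin, was not called, with 79.7 ± 2.59 CPM at 4 h and 89 ± 1.83 CPM in unstimulated cells.

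The RAS and MAP kinase list gained 15 and lost 9 of 26 tested genes, with a median of 0.67. Dusp10, a phosphatase that inactivates the stress kinases p38 and JNK, had the largest fall of any gene named by the rule of size: 2.84, 2.66, 3.16 and 3.07 CPM at 4 h and 307, 361, 317 and 298 CPM in unstimulated cells, a 110-fold difference. Map2k3, a kinase that activates p38, rose to 1090 ± 69.5 CPM at 4 h against 34.8 ± 2.71 CPM in unstimulated cells. Rasgrp2, an exchange factor for RAP1, fell to 9.63 ± 2 CPM at 4 h against 600 ± 23.1 CPM, and the GTPase activators Rasa3 and Rasal3 fell by 3.25 ± 0.14 and 3.50 ± 0.07. Spry1, a feedback inhibitor of RAS signalling that shares 24.4% of its exon bases with another gene, rose to 418 ± 26.8 CPM at 4 h against 1.53 ± 0.106 CPM. Spry2 of the same family rose by 2.63 ± 0.13.

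NF-kB genes changed in both directions. Of 30 tested, 15 rose and 11 fell, with a median log2 fold change of 0.21 that became −0.02 (14 up and 13 down) when libraries were scaled by their totals alone. Nfkb1, which encodes the p105 precursor of p50, had 2900, 2700, 2390 and 2720 CPM at 4 h and 213, 226, 209 and 200 CPM in unstimulated cells. Nfkb2 rose by 2.89 ± 0.08, and Nfkbid, a nuclear IkB protein, reached 808 ± 40.6 CPM at 4 h against 44.3 ± 2.8 CPM. Nfkbia, the inhibitor whose resynthesis shuts the pathway off, had 250, 207, 226 and 240 CPM at 4 h and 234, 200, 239 and 205 CPM in unstimulated cells. Those ranges overlapped, and the log2 fold change of 0.07 ± 0.11 did not pass the test (edgeR adjusted p = 0.552). Tnfaip3, the A20 enzyme that also ends NF-kB signalling, fell to 597, 498, 499 and 529 CPM at 4 h, against 2230, 2130, 2210 and 2090 CPM in unstimulated cells. Birc2, a ubiquitin ligase of the TNF receptor complex, fell by 1.94 ± 0.09 and the kinase gene Ikbke by 3.60 ± 0.12. Tnip3, a partner of A20, rose by 4.16 ± 0.24 from a low level.

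The sequences just upstream of 2 NF-kB pathway targets are shown because these genes, Nfkbia and Il2ra, hold the same kind of motif match and differed in their change at 4 h. They are RefSeq sequences on build GRCm38.p6, read 5′ to 3′ on the gene's strand and ending at the base before the annotated start. Capitals mark matches to the NF-kB letters, which are GGG, any 3 bases and TTCC, and, in Nfkbia, to the NFAT core TGGAAA, searched on both strands. In Nfkbia (chr12:55492648-55492897, minus strand) the NF-kB match begins 29 bases before the start and overlaps an NFAT core match by all but its first base, and another NFAT core match begins 174 bases before the start. In Il2ra (chr2:11642542-11642791, plus strand) the NF-kB match begins 200 bases before the start. Neither window overlaps an exon or intron in the annotation of the count table.
Nfkbia: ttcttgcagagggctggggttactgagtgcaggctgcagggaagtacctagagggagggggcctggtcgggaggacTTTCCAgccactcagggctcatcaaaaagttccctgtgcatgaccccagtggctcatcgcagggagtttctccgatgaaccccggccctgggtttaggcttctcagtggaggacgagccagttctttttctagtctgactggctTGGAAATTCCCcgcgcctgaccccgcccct
Il2ra: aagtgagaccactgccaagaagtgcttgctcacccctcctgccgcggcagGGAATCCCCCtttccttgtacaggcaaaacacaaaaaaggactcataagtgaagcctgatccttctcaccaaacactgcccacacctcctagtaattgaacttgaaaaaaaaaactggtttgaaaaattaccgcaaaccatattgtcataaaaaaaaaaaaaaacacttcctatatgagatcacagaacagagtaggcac

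An NF-kB match was present in 14 of 33 promoters of the NF-kB list (42.4%), in 5 of 15 chemokine promoters (33.3%) and in 6.16% of the 14424 promoters of tested genes, each 250 bases before to 50 after the start. Alternative starts of a gene count as separate promoters in all motif shares. The 33 promoters belong to 24 genes and the 15 to 12 genes. The 2241 promoters of genes past 2-fold up held it in 6.07%, and the 3166 of genes past 2-fold down in 5.62%. In genes that rose over 16-fold it was 8.96%. A match is a description of letters, not evidence of binding.

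Early transcription factors, which respond within minutes of a signal, changed in both directions at 4 h, also within families. Several classical AP-1 genes fell. Fos had 42.2, 35.2, 44.9 and 46.8 CPM at 4 h and 174, 117, 164 and 149 CPM in unstimulated cells. Jun had 71.6, 63.6, 82.5 and 91.8 CPM at 4 h and 652, 521, 670 and 630 CPM in unstimulated cells, and Junb 378, 345, 350 and 329 CPM at 4 h against 1220, 1070, 1250 and 1060 CPM. None of these ranges overlapped, and the log2 fold changes were −1.84 ± 0.13, −3.0 ± 0.13 and −1.71 ± 0.12. Fosb and Jund also fell, by 1.34 ± 0.23 and 1.84 ± 0.07, though 52.6% of the exon bases of Jund are shared with another gene. Batf, a small AP-1 partner of IRF4, fell to 14.1 ± 1.53 CPM at 4 h against 28.2 ± 3.46 CPM. Other members rose: Fosl1 to 15.3 ± 1.65 CPM at 4 h against 0.107 ± 0.0365 CPM, with 57.2% of its exon bases shared with another gene, Atf3 to 140 ± 6.67 against 10.6 ± 1.14 CPM, Mafg to 132 ± 7.78 against 22.8 ± 0.844 CPM, and Fosl2 to 316 ± 25.2 against 201 ± 26.9 CPM. The list as a whole had 8 genes up and 8 down of 16, with a median of 0.02 that became −0.22 (7 up and 8 down) with library totals alone.

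EGR and NR4A factors, which are induced by antigen receptor signals and later help restrain the response, were high at 4 h. Egr2 had 314, 311, 287 and 299 CPM at 4 h and 7.71, 7.28, 6.84 and 8.25 CPM in unstimulated cells. Egr3 rose to 116 ± 9.42 CPM at 4 h against 6.4 ± 0.357 CPM, and Egr4 by 4.45 ± 0.32. Nr4a1, which encodes the orphan nuclear receptor NUR77, had 2790, 2610, 2440 and 2460 CPM at 4 h and 202, 174, 212 and 216 CPM in unstimulated cells. Nr4a2 rose by 4.06 ± 0.08, and Nr4a3 had 1300, 1160, 1090 and 1140 CPM at 4 h against 16.3, 25.8, 17.7 and 16.2 CPM. Other immediate early genes were lower, like Fos and Jun: Klf4 fell by 3.30 ± 0.18, Klf6 to 80.8 ± 3.44 CPM at 4 h against 816 ± 58.5 CPM, and the antiproliferative gene Btg2 to 50.8 ± 1.25 against 156 ± 13.1 CPM. Ier2, Ier5 and Csrnp1 overlapped between the groups, with log2 fold changes of 0.05 ± 0.11, −0.16 ± 0.11 and 0.11 ± 0.09 that did not pass the test, though Csrnp1 was called at 0.21 without unstimulated replicate C. In all, 11 of 22 tested members of this list rose and 7 fell, with a median of 0.45. The heat shock genes Hspa1a and Hspa1b, known to respond to handling of cells, had 0.601 ± 0.116 and 1.77 ± 0.421 CPM at 4 h and 3.4 ± 1.65 and 10 ± 5.66 CPM in unstimulated cells, so they too were higher in the libraries where Fos and Jun were high. The part of handling in the Fos and Jun values was not tested.

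**Figure D3:**
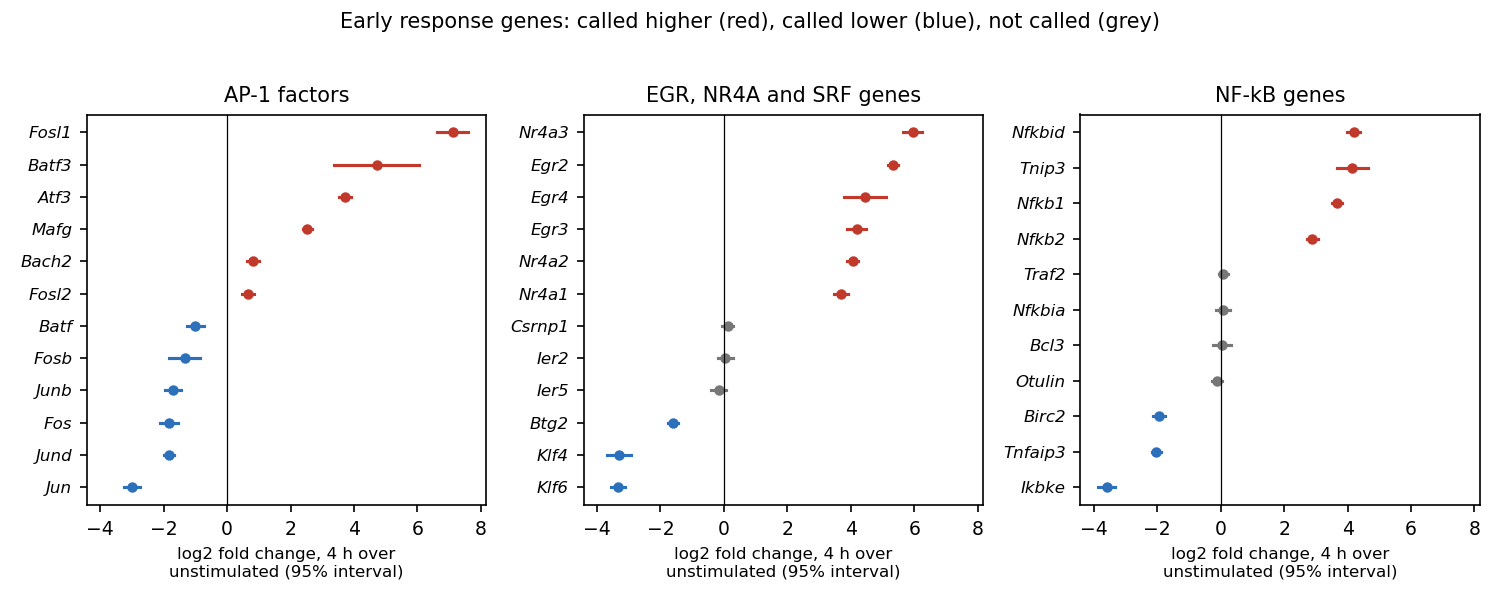
Points are log2 fold changes at 4 h over unstimulated with 95% intervals from edgeR, for AP-1 factors, for EGR, NR4A and SRF genes and for NF-kB genes; red genes rose, blue genes fell and grey genes were not called. Jun, Fos, Junb, Klf6 and Tnfaip3 lie left of 0, Fosl1, Egr2, Nr4a3 and Nfkbid right of it, and Nfkbia, Ier2 and Csrnp1 on it.

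Secreted signals had the highest medians of the lists. Of 25 tested cytokine genes 20 rose and 3 fell, with a median log2 fold change of 2.82, and of 16 chemokine genes 11 rose and 3 fell, with a median of 2.88. Xcl1 (chr1:164931644-164935527), the chemokine that draws cross-presenting dendritic cells through XCR1, had 3970, 4140, 3550 and 3300 CPM at 4 h and 0.951, 1.09, 0.948 and 0.98 CPM in unstimulated cells. That 3750-fold difference, a log2 fold change of 11.87 ± 0.16, was the largest among genes named by the rule of size (edgeR adjusted p = 1.72e-20). An antisense gene overlaps Xcl1, and because reads were counted without regard to strand the reads they share cannot be told apart. Ccl4, an inflammatory chemokine, had 4010, 3810, 3350 and 3310 CPM at 4 h and 4.3, 3.66, 4.38 and 4.85 CPM in unstimulated cells, and Ccl3 had 971, 1050, 858 and 723 CPM against 0.786, 0.463, 0.813 and 0.748 CPM. Scaled to CPM per kilobase of exon (FPKM), Xcl1 stood at 7150 and Ccl4 at 5480 at 4 h, against 1.9 and 6.51 in unstimulated cells. Ccl5, a chemokine of memory and effector cells, went the other way, with 33.4 ± 5 CPM at 4 h and 55.7 ± 6.63 CPM in unstimulated cells.

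Il2, the growth factor of activated T cells, had 133, 153, 123 and 117 CPM at 4 h and 0.0914, 0.0631, 0.0677 and 0.129 CPM in unstimulated cells. The unstimulated value rests on 16 reads over 4 libraries. Ifng had 739, 854, 703 and 595 CPM at 4 h and 1.65, 3.43, 2.93 and 3.77 CPM in unstimulated cells, and 25.9% of its exon bases are shared with another gene. Tnf rose to 200 ± 16.7 CPM at 4 h against 5.25 ± 1.12 CPM. Il3 had 67.9, 64.7, 48.7 and 44.3 CPM at 4 h and no read in any unstimulated library, which makes it at least 3530-fold higher when the unstimulated group is set at a floor of 3 counts over its 4 libraries. Il17a, a cytokine of another T cell lineage, rose to 7.32 ± 0.668 CPM at 4 h against 0.0357 ± 0.0444 CPM. The members that fell were Il16, to 8.1 ± 2.07 CPM at 4 h against 90.8 ± 5.08 CPM, Ltb, to 426 ± 21.7 against 581 ± 42.2 CPM, and Tgfb3, to 0.362 ± 0.131 against 1.51 ± 0.308 CPM.

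The Il2 upstream region (GRCm38.p6, chr3:37125965-37126204, minus strand) is shown since Il2 was among the largest rises and is the textbook target of NFAT. The 10 bases nearest the start are left off because part of them is annotated as exon. Capitals mark a match to the NFAT core TGGAAA on the other strand, 47 bases before the start. Of 25 promoters of the cytokine list, 14 held that core (56%), against 17.5% of the promoters of all tested genes. The core was in 18.3% of promoters of genes past 2-fold up, 18.8% past 2-fold down and 19.1% not called. The cytokine promoters had a median GC content of 52.3%, against 59.8% for all. The part of base content in the 56% was not tested.
Il2: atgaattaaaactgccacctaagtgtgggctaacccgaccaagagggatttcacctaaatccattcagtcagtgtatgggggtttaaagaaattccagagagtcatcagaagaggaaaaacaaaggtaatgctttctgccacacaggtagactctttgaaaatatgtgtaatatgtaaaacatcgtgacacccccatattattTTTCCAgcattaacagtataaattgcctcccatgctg

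**Figure D4:**
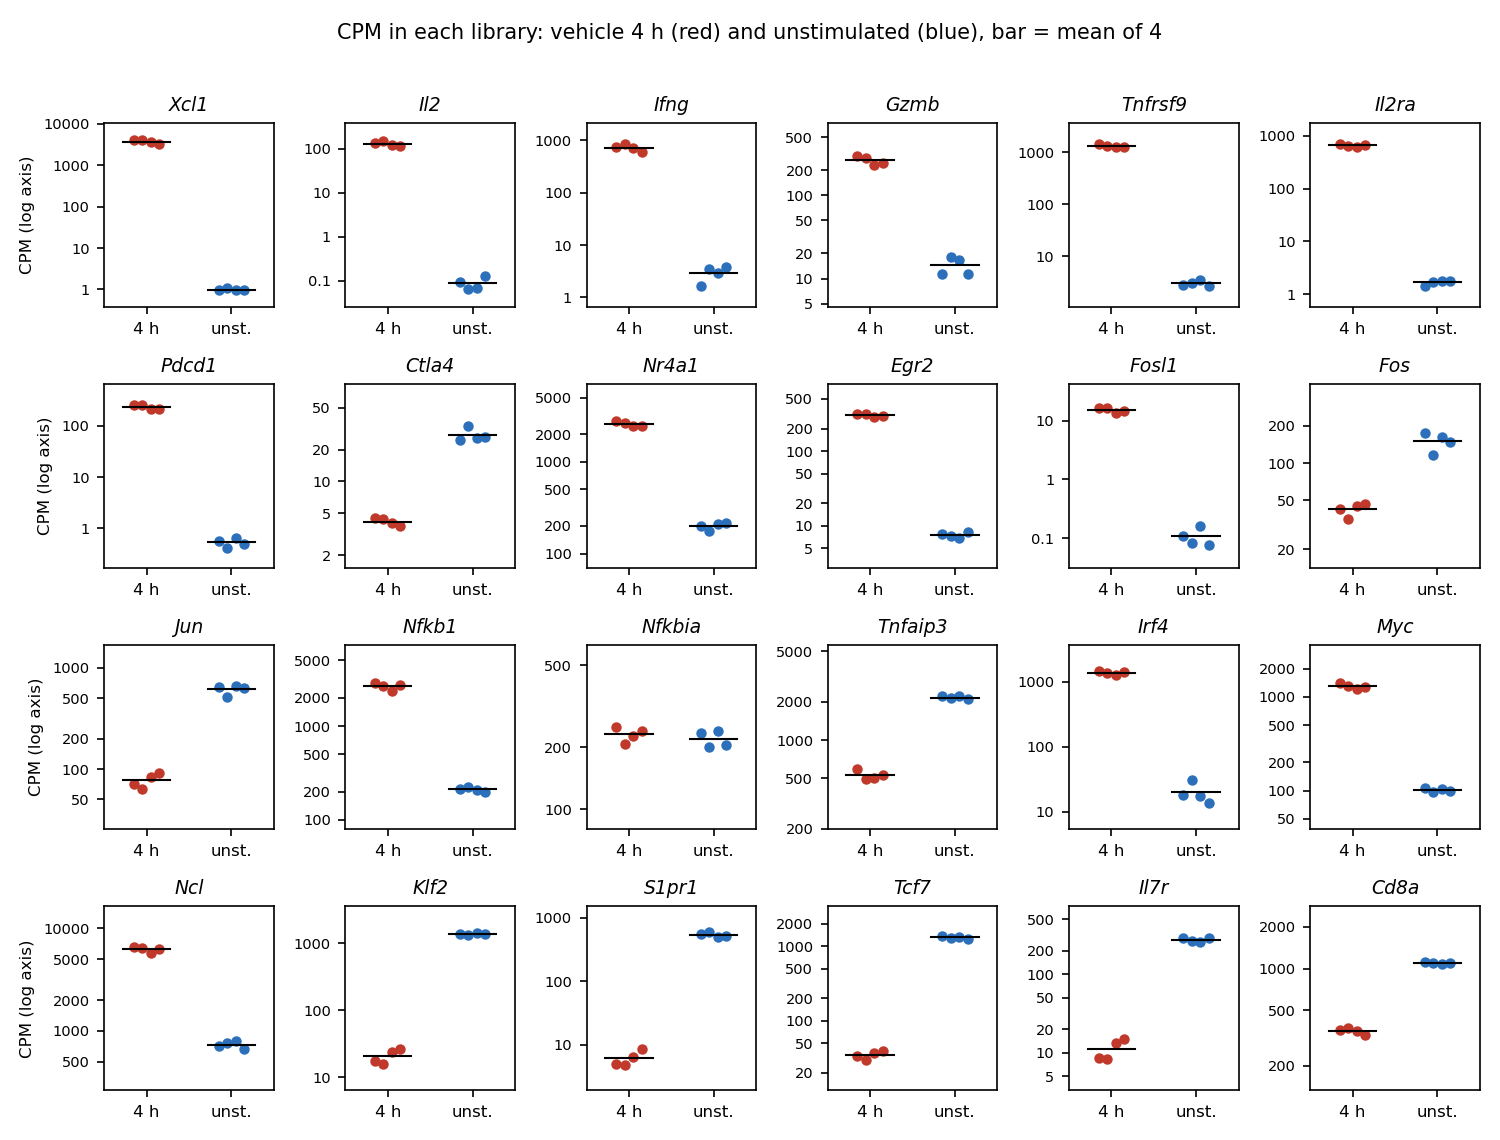
Each panel gives the CPM of 1 gene on a log axis in the 4 vehicle 4 h libraries (red, left) and the 4 unstimulated libraries (blue, right), with a bar at each mean. Red and blue points are apart in every panel except Nfkbia; Ctla4, Fos, Jun, Tnfaip3, Klf2, S1pr1, Tcf7, Il7r and Cd8a are lower at 4 h.

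Genes of the killing machinery had a smaller median change than cytokines. Of 20 tested cytotoxic granule genes 12 rose and 4 fell, with a median of 0.85 that was 1.47 without unstimulated replicate D and 1.51 in the 8 libraries alone. Gzmb, the main granzyme of killer T cells, had 293, 279, 233 and 245 CPM at 4 h and 11.4, 17.9, 16.8 and 11.4 CPM in unstimulated cells. Prf1, the pore-forming perforin, had 137, 126, 106 and 98.1 CPM at 4 h and 31.6, 31.4, 31.9 and 29.9 CPM in unstimulated cells. Gzmc rose to 28.6 ± 4.55 CPM at 4 h against 0.242 ± 0.0967 CPM, and Serpinb9, the inhibitor that protects a killer cell from its own granzyme B, to 218 ± 37.7 against 8.45 ± 0.841 CPM. Stx11, a fusion protein of granule release, rose by 3.65 ± 0.09, whereas Unc13d, which primes granules for release, fell by 2.74 ± 0.09 and Ctsw by 1.46 ± 0.09. Gzma was not called, with 7.12 ± 1.71 CPM at 4 h and 9.44 ± 1.94 CPM in unstimulated cells, but was called lower, at −0.57, without 4 h replicate A.

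Receptors for help from other cells were mostly higher. Among costimulatory receptors and TNF family ligands 20 of 29 tested genes rose and 8 fell, with a median of 1.54. Tnfrsf9 (4-1BB) had 1440, 1330, 1270 and 1260 CPM at 4 h and 2.87, 3.07, 3.59 and 2.68 CPM in unstimulated cells. Tnfsf14 (LIGHT) had 639, 652, 577 and 585 CPM at 4 h and 3.56, 3.22, 4.13 and 4.38 CPM in unstimulated cells, and Tnfsf11 (RANKL) rose by 6.12 ± 0.13 and Slamf7 by 6.37 ± 0.11. Cd69, an early activation antigen that holds cells in lymphoid tissue, had 784, 785, 790 and 889 CPM at 4 h and was already at 232, 236, 251 and 290 CPM in unstimulated cells. Icos rose by 1.82 ± 0.11 and Tnfrsf4 (OX40) by 1.39 ± 0.14, while Cd28, the receptor for B7 molecules, fell by 1.72 ± 0.16.

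Inhibitory receptors did not move as a block, with 11 of 22 tested up and 7 down and a median of 0.44 that was 0.67 without unstimulated replicate D. Pdcd1 (PD-1) had 258, 251, 215 and 215 CPM at 4 h and 0.567, 0.421, 0.655 and 0.49 CPM in unstimulated cells. Ctla4 had 4.48, 4.38, 4.02 and 3.79 CPM at 4 h and 24.5, 33.3, 25.6 and 26.3 CPM in unstimulated cells, so it fell by 2.71 ± 0.10 while Pdcd1 rose by 8.77 ± 0.12. Lag3 rose to 21.9 ± 2.75 CPM at 4 h against 1.29 ± 0.443 CPM, Havcr2 (TIM-3) to 5.11 ± 1.2 against 0.0574 ± 0.0482 CPM, Cd200 to 57.6 ± 5.14 against 1.87 ± 0.252 CPM and Tigit to 11.5 ± 0.357 against 6.22 ± 1.26 CPM. Cd96 fell by 2.36 ± 0.09 and Lair1 by 3.61 ± 0.16.

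For cytokine receptors the balance was the reverse, with 9 of 30 tested genes up and 17 down and a median of −0.79 that was −0.39 without unstimulated replicate D. Il2ra (CD25), which gives the IL-2 receptor its high affinity, had 696, 643, 615 and 685 CPM at 4 h and 1.43, 1.73, 1.74 and 1.81 CPM in unstimulated cells. Il7r, which carries the survival signal of resting T cells, had 8.61, 8.31, 13.2 and 14.9 CPM at 4 h and 292, 264, 259 and 289 CPM in unstimulated cells. Il12rb1 rose to 194 ± 14.9 CPM at 4 h against 13.5 ± 2.73 CPM, while Il6ra, Ifngr2 and Tgfbr3 fell by 3.12 ± 0.11, 4.38 ± 0.15 and 4.84 ± 0.15. Csf2rb rose by 3.49 ± 0.46 with a wide spread at 4 h of 20.3 ± 10.7 CPM. Downstream, 10 of 23 JAK, STAT and SOCS genes rose and 8 fell, and with library totals alone the counts turned to 10 and 11. Cish, a feedback inhibitor induced by IL-2 through STAT5, rose to 258 ± 14 CPM at 4 h against 5.44 ± 1.73 CPM. Jak2 and Stat5a rose by 2.17 ± 0.11 and 1.84 ± 0.08, Jak1 fell to 229 ± 14.1 CPM at 4 h against 1010 ± 24.7 CPM, and Socs3 fell to 24.7 ± 4.17 against 177 ± 40.8 CPM.

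Genes that keep a naive T cell in circulation and at rest had the lowest median of the lists. In the quiescence list 6 of 36 tested genes rose and 27 fell, with a median of −2.34. Klf2 (chr8:72319033-72321656), the factor that maintains S1pr1, had 17.3, 15.9, 23.7 and 26.2 CPM at 4 h and 1380, 1310, 1410 and 1370 CPM in unstimulated cells, a log2 fold change of −6.05 ± 0.17. Its target S1pr1, the receptor for exit from lymph nodes, had 5, 4.85, 6.5 and 8.72 CPM at 4 h and 548, 599, 504 and 511 CPM in unstimulated cells. Ccr7, the lymph node homing receptor, had 80.6, 72.6, 69.1 and 96.6 CPM at 4 h against 810, 838, 905 and 774 CPM in unstimulated cells. Replicates C and D were the highest 4 h libraries in Klf2, S1pr1, Txnip and Il7r, and still lay far below every unstimulated library.

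The transcription factors of the naive state were lower as well. Tcf7 had 34.1, 29.4, 37.5 and 39.5 CPM at 4 h and 1370, 1300, 1330 and 1250 CPM in unstimulated cells, Lef1 fell by 4.28 ± 0.12 and Foxo1 by 3.14 ± 0.10. Txnip, a brake on glucose uptake overlapped by an antisense gene, had 18, 15.4, 22.6 and 26.6 CPM at 4 h and 1280, 1370, 1280 and 1320 CPM in unstimulated cells. Tsc22d3, a glucocorticoid-induced gene that dampens activation, fell by 6.27 ± 0.13. Members of the list that rose included Slfn2, whose mouse mutant loses T cell quiescence, to 521 ± 30.8 CPM at 4 h against 134 ± 4.75 CPM. Bach2, which holds back effector differentiation, rose to 107 ± 5.75 against 60.9 ± 2.59 CPM, and Id3 to 86.9 ± 2.53 against 47.3 ± 5.58 CPM. Across homing receptors 10 of 30 tested genes rose and 16 fell, with a median of −0.62. Cd44, the adhesion receptor of activated cells, rose to 121 ± 3.95 CPM at 4 h against 21.1 ± 1.96 CPM, Cxcr3 to 58 ± 2.47 against 10.5 ± 1.98 CPM and Ccr8 to 12.5 ± 0.673 against 0.0832 ± 0.0848 CPM. Itgb7 fell to 23.5 ± 1.53 CPM at 4 h against 765 ± 48.8 CPM, and Cxcr4 and Ccr9 by 3.80 ± 0.17 and 4.76 ± 0.12, with 21.5% of the exon bases of Ccr9 shared. Among KLF and SP factors 2 of 17 tested rose and 13 fell, with a median of −1.67, and Klf16 was the larger rise, at 2.22 ± 0.09. Leaving out unstimulated replicate A or D left 1 of the 2.

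The factors of effector differentiation were divided, with 12 of 28 tested up and 11 down, counts that turned to 12 and 13 with library totals alone. Irf4, which scales with the strength of the receptor signal, had 1470, 1380, 1280 and 1420 CPM at 4 h and 18.3, 31, 17.5 and 13.4 CPM in unstimulated cells. Irf8, a relative that B cells and dendritic cells also express, had 1540, 1410, 1390 and 1550 CPM at 4 h and 8.41, 13.2, 16.3 and 6.99 CPM in unstimulated cells. Tbx21 (T-bet) had 180, 170, 171 and 181 CPM at 4 h and 6.86, 9.34, 8.74 and 8.2 CPM in unstimulated cells, and its relative Eomes fell to 9.27 ± 0.682 CPM at 4 h against 24.9 ± 2.02 CPM. Zbtb32 rose by 6.60 ± 0.15 and Tox2 by 4.94 ± 0.25. Id2, Tox, Nfil3 and Zfp683 (Hobit) fell by 0.89, 0.76, 2.14 and 4.29 on the log2 scale, and Prdm1 (Blimp-1) was not called, at 1.98 ± 0.258 CPM at 4 h and 2.14 ± 0.396 CPM in unstimulated cells.

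Growth genes were mostly higher. Myc, which drives growth metabolism in activated T cells, had 1420, 1320, 1200 and 1270 CPM at 4 h and 107, 96.8, 104 and 99 CPM in unstimulated cells, a log2 fold change of 3.68 ± 0.08 (edgeR adjusted p = 5.69e-18). Its antagonists Mxd1, Mxd4 and Mxi1 fell by 2.38 ± 0.14, 4.59 ± 0.18 and 2.31 ± 0.09, and Mnt rose by 0.65 ± 0.08. All 70 tested genes of nucleolar ribosome assembly rose, with a median of 2.31, and 65 of them rose past 2-fold. Ncl (nucleolin) had 6560, 6480, 5800 and 6330 CPM at 4 h and 718, 756, 805 and 660 CPM in unstimulated cells. Nop2, an rRNA methyltransferase, had 617, 594, 532 and 580 CPM at 4 h and 63.3, 62.4, 68.5 and 61.5 CPM in unstimulated cells. Rrp1b, Noc4l and Nop16 rose by 3.24 ± 0.07, 3.21 ± 0.10 and 3.19 ± 0.08.

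The Nop2 upstream region (GRCm38.p6, chr6:125131633-125131882, plus strand) is shown as an example of a growth gene with the E-box CACGTG, the site that MYC and MAX recognise, which is in capitals and begins 60 bases before the start. It overlaps no annotated exon or intron. The 250 bases upstream of Ncl, Nop56, Cad and Odc1, searched in the same way, held no such match. An E-box of these letters was found in 15 of 66 promoters of the nucleolar list (22.7%), in 13.6% of promoters of genes past 2-fold up, in 7.99% of those past 2-fold down, in 6.97% of those that rose over 16-fold and in 9.44% of all. The sequence reads the same on both strands, and other factors bind it as well.
Nop2: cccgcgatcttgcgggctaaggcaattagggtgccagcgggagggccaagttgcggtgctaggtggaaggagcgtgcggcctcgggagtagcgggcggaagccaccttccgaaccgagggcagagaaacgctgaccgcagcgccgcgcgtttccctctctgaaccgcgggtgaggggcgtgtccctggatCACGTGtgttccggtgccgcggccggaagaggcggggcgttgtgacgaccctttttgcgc

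RNA polymerases I and III, which make ribosomal and transfer RNA, were mostly higher too: 29 of 35 tested rose and 6 fell, with a median of 1.06. Polr1b rose to 463 ± 32.4 CPM at 4 h against 54.3 ± 1.39 CPM and Polr3d to 210 ± 13.4 against 35.3 ± 2.56 CPM. The members that fell included Maf1, the repressor of polymerase III, which dropped to 45.6 ± 2.84 CPM at 4 h against 248 ± 6.33 CPM, and Polr3gl, an alternative subunit, which fell by 3.76 ± 0.11. Cytosolic ribosomal proteins did not share the size of this rise. Of 81 tested, 29 rose, 9 fell and 43 were not called, with a median of 0.18 that became −0.06 (24 up and 25 down) with library totals alone. The median was 0.27 without 4 h replicate C. The 9 that fell were 5 when 4 h replicate B, C or D or unstimulated replicate A or C was left out. Rpl4 had 3790 ± 162 CPM at 4 h and 3840 ± 249 CPM in unstimulated cells, and Rpl6 503 ± 22.3 and 515 ± 16.6 CPM. Ribosomal protein genes have many processed pseudogene copies, so reads that match several places make single values uncertain.

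The rest of the translation machinery was higher. Of 55 translation factors 43 rose and 6 fell (median 1.16), of 21 genes in the list of tRNA synthetases 19 rose and 2 fell (median 2.20), and of 77 mitochondrial ribosomal proteins 66 rose and 5 fell (median 0.91). Eif5a, the factor that carries hypusine, reached 3490 ± 192 CPM at 4 h against 553 ± 50.2 CPM, and the cap-binding protein gene Eif4e 266 ± 13.7 against 38.9 ± 1.91 CPM. Eef1a1, one of the most abundant transcripts, fell by 0.25 ± 0.07, to 8650 ± 451 CPM at 4 h against 10300 ± 751 CPM, a call that was lost without 4 h replicate C or D or unstimulated replicate C (−0.16, −0.18 and −0.17). The alanine synthetase gene Aars had 485, 471, 428 and 488 CPM at 4 h and 48.1, 51.8, 53 and 43.3 CPM in unstimulated cells, and Iars and Cars rose by 3.15 ± 0.09 and 3.11 ± 0.07. The exceptions were Qars, the enzyme that loads glutamine onto its tRNA, which fell by 0.22 ± 0.06, and Fars2, which fell by 0.50 ± 0.08 and encodes the mitochondrial enzyme for phenylalanine, not a cytosolic one. The call of Qars was lost without 4 h replicate B, C or D or unstimulated replicate C (−0.16, −0.12, −0.15 and −0.13).

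Most genes of protein folding and turnover rose. In the heat shock and chaperonin list 27 of 38 tested genes rose and 8 fell (median 1.39), in the endoplasmic reticulum list 20 of 26 rose and 6 fell (median 0.81), and of 37 proteasome subunits 33 rose and 2 fell (median 1.39). Hsp90ab1 reached 7970 ± 627 CPM at 4 h against 2400 ± 171 CPM, the largest gain in CPM of any gene named by the rule of size, and Hspa8 reached 2510 ± 238 against 531 ± 40.1 CPM. The mitochondrial chaperone gene Hspd1 and the chaperonin gene Cct3 rose by 2.74 ± 0.09 and 2.20 ± 0.07. The 2 proteasome genes that fell encode immunoproteasome subunits: Psmb8 had 82.8 ± 5.03 CPM at 4 h and 241 ± 22.4 CPM in unstimulated cells, and Psmb10 28.3 ± 4.08 and 151 ± 21 CPM. The third immunoproteasome gene, Psmb9, was not called. In the endoplasmic reticulum the chaperones Hyou1 and Pdia6 rose by 2.18 ± 0.09 and 2.02 ± 0.07, while the stress sensor Eif2ak3 and the degradation factor Edem1 fell by 1.81 ± 0.08 and 1.46 ± 0.07.

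Genes of amino acid supply rose on balance. Among amino acid transporters 19 of 26 tested rose and 7 fell, with a median of 0.96. The 2 chains of the large neutral amino acid carrier rose, Slc7a5 to 758 ± 76.3 CPM at 4 h against 54 ± 7.16 CPM and Slc3a2 to 853 ± 69.9 against 206 ± 13.8 CPM, as did Slc1a5, a glutamine carrier, to 1490 ± 93.1 against 296 ± 11.6 CPM. Slc6a19 fell by 5.29 ± 0.18, and the lysosomal amino acid sensor gene Slc38a9 by 2.27 ± 0.12. Of 26 genes of glutamine and glutamate use 21 rose and 4 fell, with a median of 1.39. Cad, whose enzyme takes nitrogen from glutamine to start pyrimidine synthesis, had 800, 732, 638 and 697 CPM at 4 h and 107, 106, 127 and 100 CPM in unstimulated cells, and Ctps, which makes CTP from glutamine, reached 292 ± 16.8 CPM at 4 h against 28.4 ± 2.81 CPM. Glud1, which feeds glutamate into the TCA cycle, fell by 0.42 ± 0.06. In the list of ATF4 targets 16 of 23 rose and 4 fell, with a median of 1.64. Psat1, an enzyme of serine synthesis, and Chac1, which degrades glutathione, rose by 3.93 ± 0.08 and 4.89 ± 0.23, and the stress response genes Ddit3, Ddit4, Gadd45a and Ppp1r15a fell by 0.84, 2.35, 2.69 and 1.68 on the log2 scale.

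One-carbon, nucleotide and polyamine genes also rose on balance. The serine and folate list had 16 of 25 up and 7 down (median 1.02), the nucleotide list 29 of 40 up and 8 down (median 1.27) and the polyamine list 9 of 16 up and 4 down (median 0.99), with 2 down when 4 h replicate B, C or D or unstimulated replicate C was left out. Shmt1 reached 492 ± 33 CPM at 4 h against 14.1 ± 1.09 CPM and the mitochondrial folate enzyme gene Mthfd2 477 ± 31.3 against 21.9 ± 2.68 CPM. Srm, spermidine synthase, had 985, 915, 808 and 868 CPM at 4 h and 60.4, 57.2, 67.9 and 53.5 CPM in unstimulated cells. Odc1, the first enzyme of polyamine synthesis, had 1080, 999, 933 and 1000 CPM at 4 h and 204, 230, 205 and 177 CPM in unstimulated cells. The nucleoside kinase gene Dck fell by 2.32 ± 0.15.

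Among energy genes the medians were smaller. Of 36 genes of glucose transport and glycolysis 18 rose and 14 fell, with a median of 0.29 that was 0.52 without unstimulated replicate C. Hk2, the inducible hexokinase, rose to 200 ± 17.2 CPM at 4 h against 7.4 ± 0.957 CPM and the lactate genes Ldha and Slc16a1 by 1.88 ± 0.10 and 2.38 ± 0.12, while the glucose carrier Slc2a1 rose by 0.77 ± 0.09. Pdk1 and Pdk2, which keep pyruvate out of the TCA cycle, fell by 2.85 ± 0.08 and 2.91 ± 0.17. For the TCA cycle 20 of 29 rose and 5 fell (median 0.48), and for nuclear genes of the respiratory complexes 45 of 73 rose and 11 fell (median 0.45). Of 45 lipid genes 25 rose and 16 fell (median 0.54), with the synthetic enzymes Fasn, Cyp51 and Sqle up by 2.78 ± 0.10, 3.69 ± 0.09 and 3.0 ± 0.08, and the export and oxidation genes Abcg1, Abca1 and Cpt1a down by 3.30 ± 0.13, 2.24 ± 0.22 and 3.28 ± 0.10. Elovl6, a fatty acid elongase, fell by 2.76 ± 0.11.

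Most mitosis genes fell. Of 41 mitosis genes 1 rose and 37 fell, with a median of −0.87, and of 41 DNA replication genes 11 rose and 22 fell, with a median of −0.21 that was −0.1 without 4 h replicate D and −0.11 without unstimulated replicate C. The DNA replication median of −0.21 equalled that of all tested genes. Racgap1 and Cdc25b, of cytokinesis and mitotic entry, fell by 4.08 ± 0.11 and 4.09 ± 0.08, and Bub3 was the mitosis gene that rose, by 0.90 ± 0.08. Pcna and Mcm5, of the replication fork, rose by 1.20 ± 0.10 and 0.95 ± 0.10, and Rpa1 fell by 1.65 ± 0.07. In the G1 list 10 of 29 rose and 14 fell, with a median of 0.01 that became −0.22 with library totals alone. Ccnd2, a D-type cyclin, rose to 1480 ± 121 CPM at 4 h against 174 ± 15.3 CPM and Cdk4 to 419 ± 26.4 against 115 ± 12.3 CPM, while the inhibitor Cdkn1b (p27) fell to 9.47 ± 1.92 CPM at 4 h against 309 ± 18.5 CPM. A second inhibitor, Cdkn1a (p21), rose by 3.44 ± 0.24.

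Survival genes changed in both directions. Of 30 genes of the BCL2 family and death receptors 13 rose and 13 fell, with a median of −0.11 that was −0.05 to −0.03 without 4 h replicate B, C or D or unstimulated replicate C, and 0.06 without unstimulated replicate D. The protective genes Bcl2l1 (BCL-XL) and Bcl2a1d rose, to 266 ± 21 CPM at 4 h against 12.4 ± 0.797 CPM and to 84.5 ± 6.9 against 1.14 ± 0.117 CPM, although the Bcl2a1 copies are nearly identical and reads may be split among them. The killers Bbc3 (PUMA) and Bmf fell, to 7.32 ± 1.07 CPM at 4 h against 171 ± 5.5 CPM and to 1.68 ± 0.779 against 12.3 ± 1.2 CPM. Among p53 targets 9 of 25 rose and 12 fell, with a median of −0.24 that was −0.07 without 4 h replicate A, −0.15 without 4 h replicate C and −0.06 without unstimulated replicate D. Trp53 itself overlapped, with 127 ± 7.52 CPM at 4 h and 131 ± 5.37 CPM in unstimulated cells.

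Interferon-stimulated genes held a mixed pattern. Of 43 tested 10 rose and 22 fell, with a median of −0.53 that was −0.22 without unstimulated replicate B, equal to that of all genes in the same fit. The antiviral genes Ifit3 and Oas2 had 1.97, 3.22, 4.05 and 3.65 CPM and 2.19, 3.1, 3.75 and 2.69 CPM at 4 h. In unstimulated cells Ifit3 had 16.2, 50.7, 21.6 and 10.9 CPM and Oas2 18.4, 43.6, 23.7 and 17.4 CPM, with replicate B the highest in both. Gbp2, a target of interferon gamma, had 553, 606, 713 and 710 CPM at 4 h and 66.3, 152, 75.8 and 42.5 CPM in unstimulated cells, and Gbp5 rose by 2.86 ± 0.23. Unstimulated replicate B was the highest of its group in Gbp2 as well.

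RNA-binding proteins that destabilise cytokine messages were among the genes that fell. Zfp36l2 had 110 ± 5.75 CPM at 4 h and 1060 ± 78.2 CPM in unstimulated cells, and Zfp36 60.8 ± 5.03 and 183 ± 34.3 CPM, whereas Zfp36l1 was not called at −0.11 ± 0.07. Over the whole list 15 of 34 rose and 15 fell, with a median of 0.00. Elavl1 (HuR), which stabilises messages, rose by 1.38 ± 0.10 and the exonuclease gene Xrn1 fell by 1.96 ± 0.13. Genes of the lysosome and autophagy fell more often than they rose, 28 against 12 of 47 (median −0.67), and their regulator Tfeb fell to 1.95 ± 0.492 CPM at 4 h against 20.6 ± 0.986 CPM. Redox genes had 14 of 29 up and 9 down with a median of −0.04, and 12 up and 15 down with library totals alone: Srxn1 and Txnrd1 rose by 5.82 ± 0.23 and 1.95 ± 0.08, and Nfe2l2 (NRF2) and Gpx4 fell by 1.34 ± 0.08 and 2.44 ± 0.21.

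Enzymes of DNA and histone methylation also changed in both directions, with 11 of 29 up and 14 down and a median of −0.35 that was −0.19 without unstimulated replicate C. Kdm6b, a demethylase of H3K27, had 853, 805, 751 and 819 CPM at 4 h and 112, 129, 124 and 122 CPM in unstimulated cells, while its relative Kdm6a fell by 1.31 ± 0.11. Dnmt3a and Dnmt3b, the de novo DNA methyltransferases, rose by 2.01 ± 0.08 and 1.90 ± 0.09. Tet1, which oxidises methylated cytosine, had 0.465, 0.849, 1.12 and 0.898 CPM at 4 h and 23.5, 23.2, 21.7 and 28 CPM in unstimulated cells.

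Genes of movement and cell shape fell on balance, 26 against 13 that rose of 43 tested, with a median of −0.71. Actb, beta-actin, rose to 2270 ± 207 CPM at 4 h against 1150 ± 94.5 CPM, and Tuba1c by 2.85 ± 0.10. The actin regulators Coro1a, Rac2 and Evl fell, to 323 ± 21.6 CPM at 4 h against 1870 ± 165 CPM, to 63.8 ± 6.84 against 947 ± 55.6 CPM and to 27.7 ± 5.4 against 578 ± 18.4 CPM. Myh9, a myosin heavy chain, had 635, 582, 595 and 624 CPM at 4 h and 2310, 2360, 2440 and 2180 CPM in unstimulated cells. The largest loss in CPM was that of Arhgap45, an activator of GTP hydrolysis by small GTPases, with 79.7, 73.1, 101 and 117 CPM at 4 h and 2380, 2250, 2270 and 2270 CPM in unstimulated cells. The thymosins Tmsb10 and Tmsb4x, which bind free actin, had 790 ± 21.7 and 584 ± 11.1 CPM at 4 h against 2680 ± 141 and 2030 ± 128 CPM.

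The host transcripts of miR-155 and the miR-17 cluster rose. Of 21 microRNA and snoRNA host genes 12 rose and 5 fell, with a median of 0.45. Mir155hg had 98, 102, 88.7 and 97.1 CPM at 4 h and 0.859, 0.8, 0.519 and 0.671 CPM in unstimulated cells, and Mir17hg 75.1, 79.3, 69.7 and 84.3 CPM against 18.4, 22.4, 18 and 19.6 CPM. The mature microRNAs themselves were not measured. Their sequences (RefSeq, GRCm38.p6, plus strand; capitals mark the seed, bases 2 to 8) are shown because the seed decides which messages each can repress, and the 6 mature sequences shown from the Mir17hg transcript carry 4 different seeds. miR-155 lies at chr16:84714143-84714165, and the miR-17 cluster spans chr14:115043684-115044496, with miR-17 and miR-20a sharing the seed AAAGUGC and miR-19a and miR-19b sharing GUGCAAA.
miR-155-5p: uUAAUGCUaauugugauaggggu
miR-17-5p: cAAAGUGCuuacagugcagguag
miR-20a-5p: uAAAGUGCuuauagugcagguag
miR-18a-5p: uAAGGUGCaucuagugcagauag
miR-19a-3p: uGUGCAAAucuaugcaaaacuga
miR-19b-3p: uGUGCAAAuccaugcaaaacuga
miR-92a-3p: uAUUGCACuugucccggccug

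Beyond the lists, a rule of size named further genes. Among the 12 largest rises were Sema7a, a semaphorin of activated lymphocytes, with 726, 700, 665 and 695 CPM at 4 h and 0.64, 2.21, 0.813 and 0.387 CPM in unstimulated cells, and Rgs16, a regulator of G protein signals from chemokine receptors, with 487, 512, 446 and 438 CPM against 0.548, 1.01, 1.08 and 1.39 CPM. Bcat1, the cytosolic enzyme that starts breakdown of branched-chain amino acids, and Utf1, a chromatin factor known from embryonic stem cells, rose 351-fold and 313-fold. Among the 12 largest falls were Nsg2, to 3.42 ± 0.596 CPM at 4 h against 327 ± 15.5 CPM, Dtx1, a NOTCH regulator linked to T cell anergy, to 5.58 ± 0.602 against 500 ± 18 CPM, the adhesion receptor Adgrg5, to 2.22 ± 0.498 against 192 ± 5.54 CPM, and the phosphatase Acp5, to 5.06 ± 0.628 against 344 ± 17 CPM.

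Among genes with no read in any unstimulated library, leaving aside predicted genes, clones and pseudogenes, Il3 had the highest level at 4 h. After it came Ccl22, at 3.25 ± 1.45 CPM and at least 210-fold higher, Lpar3, a lysophosphatidic acid receptor, at 2.21 ± 0.0957 CPM and at least 137-fold higher, and A1cf and Nkx1-1 at 1.18 CPM or less. Genes with no read in any 4 h library were led, by the same rule, by Slc6a19os at 0.598 ± 0.151 CPM and Nap1l5 at 0.557 ± 0.253 CPM in unstimulated cells, which makes them at least 30.2-fold and 27.5-fold lower at 4 h. At the other end, the most abundant genes whose 95% interval lay within 0.2 of no change on the log2 scale were Rpl4, Eif1, Rpl6, Itgal, Eif3h and Sqstm1, a group that library totals alone put at −0.27 to −0.17; Sqstm1 was called at 0.16 without 4 h replicate C. Eif1 had 747 ± 54.4 CPM at 4 h and 753 ± 27.3 CPM in unstimulated cells, and Itgal, the LFA-1 alpha chain, 509 ± 31.3 and 503 ± 21.2 CPM.

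Gene structure differed between classes, which is given as a description over protein-coding genes. Those that rose over 16-fold had a median span of 11375 bases and 6 exon blocks, against 24130 bases and 10 blocks among all tested genes, and 46.5% of them spanned under 10 kb, against 24.1% of all. An AP-1 match, TGANTCA on either strand, was found in 26 of the 201 promoters of genes that rose over 16-fold (12.9%), in 8.37% of those that fell over 16-fold and in 5.35% of all. The wider classes past 2-fold held it in 5.44% of promoters of genes that rose and 5.43% of those that fell. The authors' peak lists for vehicle cells at 48 h were set beside these classes, with a gene counted when a peak lay within 1000 bases of its start. That start is the outermost exon edge on the gene's 5′ side, so peaks at other starts of a gene were not counted. Genes past 2-fold up had a median span of 18319 bases and those past 2-fold down 27092 bases. What part this rule had in the shares was not tested. H3K27ac, a mark of active promoters and enhancers, lay there for 50.6% of genes past 2-fold up, 40.1% past 2-fold down and 44.5% of all. H3K27me3, a mark of silencing, lay there for 11.6%, 13.7% and 15.1%. The genes with changes over 16-fold differed from those classes: 31% of those that rose and 29.5% of those that fell had H3K27ac there, and 26.7% and 17.5% had H3K27me3. Genes that were not called had shares near those of the genes that rose over 16-fold, 30.6% with H3K27ac and 26.8% with H3K27me3. Levels differed between the classes as well. The median log2 CPM was 1.85 for genes that rose over 16-fold, 1.17 for those not called and 4.09 over all genes. The peaks come from cells at 48 h and the RNA from cells at 4 h, so they show no order of events.

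Levels at 24 h and 48 h in the vehicle libraries show which of the 4 h levels were passing, as a description from the same scaled counts. Xcl1 stood at 0.993 ± 0.0689 CPM in unstimulated cells, 3740 ± 382 at 4 h, 173 ± 21 at 24 h and 8.46 ± 1.32 at 48 h, and Il2 at 0.0878 ± 0.0301, 131 ± 15.6, 65.2 ± 8.93 and 0.365 ± 0.202 CPM. Nr4a1 had 201 ± 19.2 CPM in unstimulated cells, 2580 ± 162 at 4 h, 170 ± 19.8 at 24 h and 41.2 ± 4.84 at 48 h, so its last level was below the unstimulated one. Gzmb ran in the other order, with 14.4 ± 3.47, 263 ± 28.2, 4920 ± 601 and 5310 ± 635 CPM. Ctla4 was lowest at 4 h, with 27.4 ± 3.99 CPM in unstimulated cells, 4.17 ± 0.318 at 4 h, 209 ± 16.7 at 24 h and 419 ± 26.4 at 48 h. Tcf7 had 1310 ± 48.6, 35.1 ± 4.44, 217 ± 7.68 and 216 ± 18.4 CPM at the same 4 points, whereas Klf2 stayed low, with 1370 ± 43.1, 20.8 ± 4.95, 4.5 ± 1.11 and 4.91 ± 0.615 CPM. Ncl kept most of its rise, at 735 ± 61.1, 6290 ± 343, 6240 ± 408 and 4790 ± 500 CPM.

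**Figure D5:**
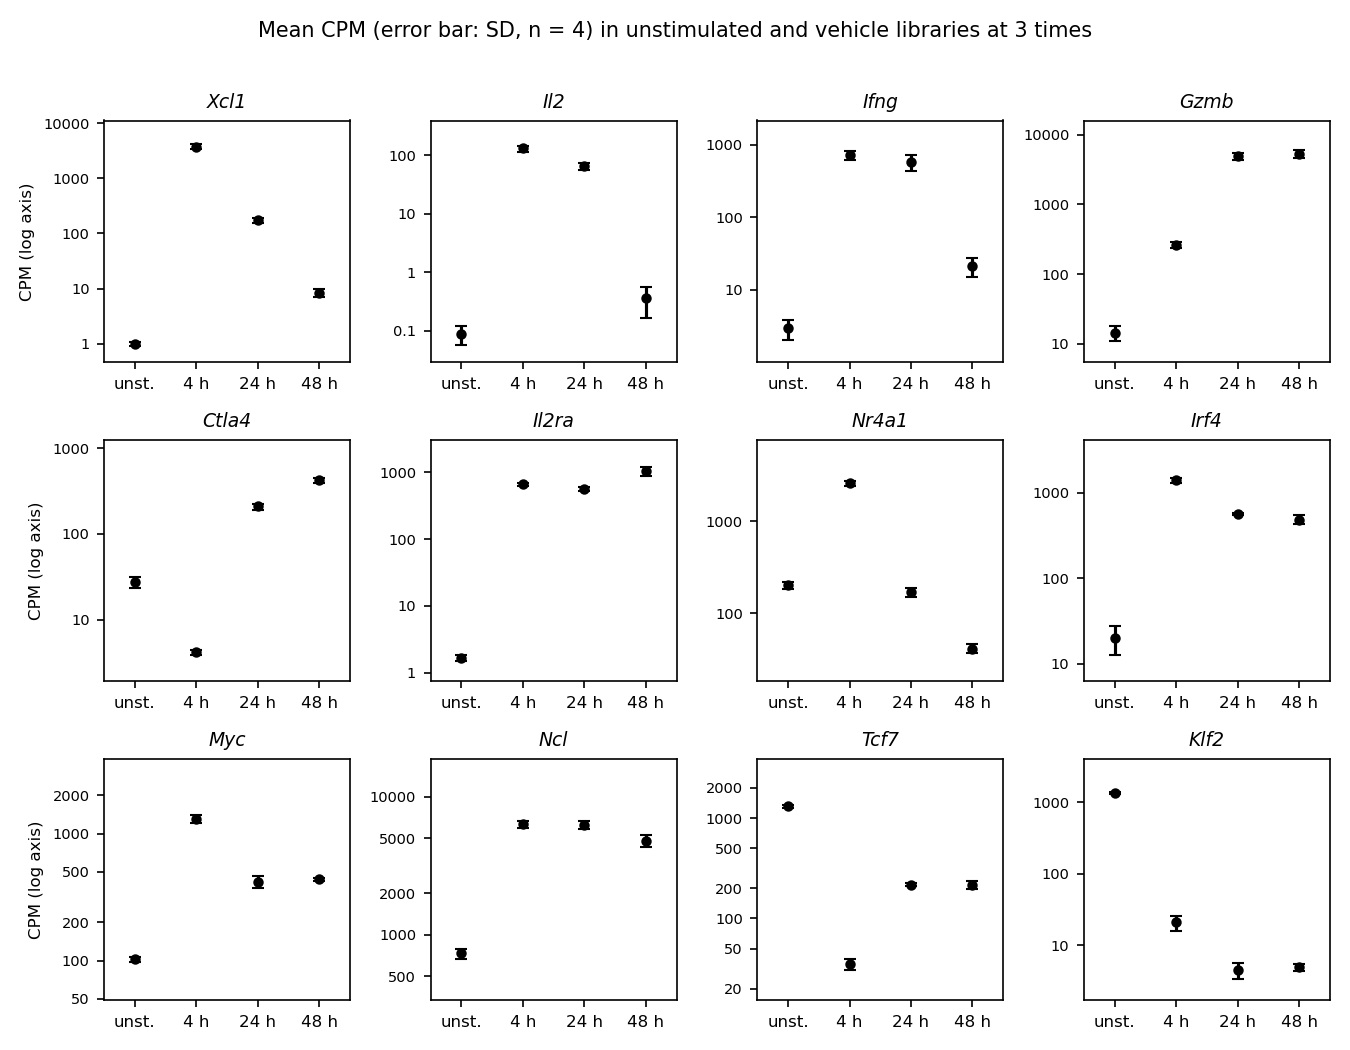
Mean CPM on a log axis with SD over 4 libraries, for 12 genes in unstimulated cells and in vehicle cells at 4 h, 24 h and 48 h. Xcl1, Il2 and Nr4a1 peak at 4 h, Gzmb is highest at 24 h and 48 h, Ctla4 and Tcf7 are lowest at 4 h and Klf2 is low at all 3 times.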

How the data were processed

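RNA was measured by bulk sequencing of 4 vehicle 4 h and 4 unstimulated libraries, from a stranded preparation per the labels' protocols. The authors deposited raw counts per gene over exons, made with featureCounts 2.0.1 in paired mode on GENCODE release M25 (mm10) without a strand option, per the file headers. STAR, Bowtie2, FastQC, MACS2 and deepTools are named, without versions here, in the submitters' processing notes. The authors' deposited peak lists carry −log10 of the irreproducible discovery rate per peak, kept at 0.05, for peaks merged over 2 replicates. They hold 9681 H3K27ac and 13556 H3K27me3 peaks of vehicle cells at 48 h and were used by position only.

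Counts were tested in R 4.3.3 with edgeR 4.0.16 (limma 3.58.1): genes kept by filterByExpr, TMM scaling, and a robust quasi-likelihood fit of the 16 unstimulated and vehicle libraries, whose later times share the estimate of the spread (common biological coefficient of variation 0.132). p-values were adjusted by Benjamini-Hochberg over the 18317 tested genes and called at 0.05. A change past 2-fold was called with edgeR's glmTreat against a log2 fold change of 1. The fit was also run on simulated counts with few changed genes, balanced in direction, and the same spread for every gene. In these data most genes changed, so that run cannot check the scaling or the calls here. CPM are TMM-scaled, and the principal components used log2 of CPM + 0.5. Depth was 32550890 to 48303802 counts per library, and a fold against a group with no read uses a floor of 3 counts over its 4 libraries, which covers counting error only. Pairs of replicates differed by more than sampling noise, with a chi-square per degree of freedom of 3.86 to 7.75 at 4 h and 6.21 to 17.7 in unstimulated cells, so each counted as 1 sample. Libraries with the same letter were not treated as paired, and group means were fitted without a block.

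The gene lists, the genes and the comparison were chosen with earlier results of these data known, and no set test was run. Genes were named by rule, from symbols that are not predicted genes, clones or pseudogenes. The rule took the 12 largest rises and 12 largest falls among called genes whose groups did not overlap and whose mean log2 CPM was at least 3, the 8 largest gains and losses in CPM, the 6 most abundant genes with 0 reads in the other group, the 6 most abundant genes whose interval lay within 0.2 of no change, up to 4 members of each list in each direction, and a panel of well-known activation genes. Ighm and Igkc were named after their values were seen. Some genes that the rule names are not reported here. Promoters and microRNAs are RefSeq sequences on GRCm38.p6, and 11323 tested genes matched 14424 promoters by symbol. Promoters on a single chromosome were left out of that match, so its genes are absent from the motif shares. Alternatives were DESeq2 1.42.0, DESeq2's size factors in edgeR (RLE), library totals alone, no filter on low counts, the 8 libraries alone, all 52 RNA libraries, a replicate block, an adjusted p of 0.01 and each replicate left out.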

Additional observations from a re-analysis of the deposited data

Results flagged for a closer look

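In 31 of 554 sets of 4 libraries that were looked at (5.6%), 1 library stood apart from the other 3 by Dixon's test of the gap over the range. The test flags about 1 in 20 sets by chance if sets are independent and normally spread. These sets share the same libraries, so that rate cannot tell whether the flags are chance. Among the 4 h libraries, replicate A stood apart in Cd8b1 at 161 CPM, Gzmc at 35.3 CPM and Id2 at 44.1 CPM, and replicate B in Ctsw at 136 CPM and Zfp36l2 at 101 CPM. Replicate C at 4 h stood apart in Cpt1a at 10.4 CPM, Ddit3 at 11.9 CPM and Psmb10 at 34.4 CPM, and replicate D in Cd69 at 889 CPM, Fars2 at 11.9 CPM and Gadd45a at 3.62 CPM.

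Of the unstimulated libraries, replicate B stood apart in 10 sets, the most of any library. These were Ccnd2 at 197 CPM, Chac1 at 0.274 CPM, Cish at 8.02 CPM, Cxcr4 at 52.5 CPM, Ddit4 at 20.6 CPM, Dnmt3a at 112 CPM, Eif2ak3 at 48.5 CPM, Il16 at 83.2 CPM, Nr4a3 at 25.8 CPM and Serpinb9 at 9.7 CPM. Unstimulated replicate C stood apart in Cpt1a at 86.5 CPM, Csf2rb at 3.75 CPM, Ctps at 32.6 CPM, Fasn at 189 CPM and the summed neutrophil markers at 167 CPM. Unstimulated replicate D stood apart in Polr3d at 31.5 CPM, Psmb10 at 120 CPM, Tuba1c at 45.4 CPM and the summed CD4 T cell markers at 43.2 CPM, and replicate A in Arhgap45 at 2380 CPM.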

How the results depend on the processing

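Every alternative left the counts of genes up and down within 1.5 times those reported. The overall median of log2 fold changes moved: it was −0.45 with library totals alone, −0.46 without the filter on low counts, −0.33 in a fit of all 52 libraries, −0.18 in the 8 libraries alone, −0.19 with RLE scaling and in DESeq2, and −0.27 to −0.13 with each replicate left out. Same-letter libraries of the 2 groups correlated at 0.266, 0.116, 0.116 and 0.081 for A, B, C and D in their deviations from the group means. With the replicate block the median was −0.2 over 16 libraries and −0.16 over 8; the counts were 6240 up and 7363 down over 16 libraries, and Eef1a1 over 8 libraries was the only named gene whose call changed. Of 4573 values of the 269 genes named, 4547 kept their direction and their side of the threshold. With library totals alone Eif3h (−0.23), Itgal (−0.22) and Sqstm1 (−0.17) turned negative, and 9 genes that were not called became called, all lower. Counts and medians of the lists moved in 320 of 2907 values, most often with library totals alone or without the filter, and with each replicate left out the near-0 medians of the AP-1, G1, redox and RNA-binding lists ranged over −0.08 to 0.12. No spike-in, unknown origin of the replicates and B cell markers that differ between the groups limit every comparison.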
